A study of Mus musculus with 12 samples.

Results

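The genes described here are 10 mouse genes of extracellular ATP and adenosine signalling, chosen by name for their part in tubuloglomerular feedback. They are the ATP release channel Panx1, the nucleotide-degrading enzymes Entpd1, Entpd2, Entpd3, Entpd5 and Nt5e, the adenosine receptors Adora1, Adora2a and Adora2b, and the nucleoside transporter Slc29a1. Of the 10 genes, 9 had a row among the 23378 genes analysed, and 7 of them were tested together with 14180 genes in all after a filter on low counts. Entpd2 and Adora2b fell below that filter and are given by their levels and by separate tests, and Entpd3 was not analysed here.

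RNA was sequenced from cells sorted out of digested kidney cortex. All 12 libraries came from C57BL/6 mice of the genetic model nNosCreERT2-mTmG (MD-GFP), in which Cre recombinase expressed from the neuronal nitric oxide synthase gene switches a membrane reporter from tdTomato to eGFP. Green cells were taken as macula densa cells, so this population is defined by Cre activity and not by position in the nephron. The brightest red cells were taken as control cells, meant to stand for epithelium of the distal tubule and collecting duct. There were 2 macula densa libraries from mice on control diet, 2 macula densa libraries from mice on low salt diet (TD 90228) plus enalapril, which blocks the angiotensin-converting enzyme, at 150 mg/L in the drinking water (the treatment), and 4 control-cell libraries for each of those 2 conditions. Mice were treated for 14 days. The labels give neither age nor sex, and nothing in them says which libraries came from separate animals, so the p-values measure the spread between these libraries, which may be partly technical.

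Macula densa cells sense the salt that reaches the end of the thick ascending limb. When salt delivery rises, ATP is released at their base, ectonucleotidases on nearby cells strip its phosphates, and the adenosine that results acts on A1 receptors of the afferent arteriole, which constricts and lowers filtration. The same signal restrains renin release. Adenosine A2 receptors raise cyclic AMP and mostly dilate vessels, and equilibrative nucleoside transporters take adenosine into cells.

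All 9 genes with a row are protein-coding in GENCODE M21 on GRCm38. Panx1 lies on the minus strand of chromosome 9 from 15002128 to 15045478, and Nt5e on the plus strand of the same chromosome from 88327197 to 88372092. Entpd1 is on chromosome 19 from 40612366 to 40741602 (plus), Entpd2 on chromosome 2 from 25395874 to 25401321 (plus) and Entpd5 on chromosome 12 from 84373857 to 84409029 (minus). Adora1 is on chromosome 1 from 134199223 to 134235431 (minus), Adora2a on chromosome 10 from 75316877 to 75334784 (plus) and Adora2b on chromosome 11 from 62248984 to 62266453 (plus). Slc29a1 is on chromosome 17 from 45585200 to 45599606 (minus). Entpd2 shares 612 exon bases with Npdc1 on the same strand, so its count is uncertain. Adora1 shares 1162 exon bases with Mybph on the opposite strand and Slc29a1 shares 275 with the antisense gene Gm17080, and whether strand was used in counting is not stated, so reads from these partners could not be told apart from the member's own.

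Promoter sequences, the 250 bases before a transcription start, are printed for 4 members that stand for the contrasts in the data. Slc29a1 was measured higher in macula densa cells and Adora1 lower. Panx1 was measured higher there on low salt with enalapril, while on control diet the populations overlapped. Adora2b was the receptor with the most counts in macula densa cells on control diet. The sequences come from RefSeq on GRCm38.p6 and are written in the direction of transcription. Capitals mark matches, on either strand, to the GC box GGGCGG, the cyclic AMP half-site TGACG, the hypoxia core ACGTG or the TATA box TATAAA, and matches can overlap.
Panx1, chr9:15045479-15045728, minus strand: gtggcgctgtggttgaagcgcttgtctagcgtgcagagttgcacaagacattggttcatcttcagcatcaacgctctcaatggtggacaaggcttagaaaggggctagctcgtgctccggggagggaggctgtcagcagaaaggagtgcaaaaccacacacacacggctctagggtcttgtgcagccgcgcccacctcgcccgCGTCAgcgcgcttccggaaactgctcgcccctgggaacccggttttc
Adora1, chr1:134235458-134235707, minus strand: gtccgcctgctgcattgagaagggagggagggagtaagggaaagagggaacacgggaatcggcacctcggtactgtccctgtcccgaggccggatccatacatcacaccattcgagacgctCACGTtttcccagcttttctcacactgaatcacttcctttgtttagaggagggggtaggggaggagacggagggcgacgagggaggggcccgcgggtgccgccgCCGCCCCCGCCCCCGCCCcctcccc
Adora2b, chr11:62248734-62248983, plus strand: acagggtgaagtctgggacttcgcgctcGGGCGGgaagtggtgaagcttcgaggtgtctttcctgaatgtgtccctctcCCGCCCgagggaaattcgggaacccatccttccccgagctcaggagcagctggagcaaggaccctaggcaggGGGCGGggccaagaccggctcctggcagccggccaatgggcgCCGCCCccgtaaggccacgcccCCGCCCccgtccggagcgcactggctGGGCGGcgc
Slc29a1, chr17:45599619-45599868, minus strand: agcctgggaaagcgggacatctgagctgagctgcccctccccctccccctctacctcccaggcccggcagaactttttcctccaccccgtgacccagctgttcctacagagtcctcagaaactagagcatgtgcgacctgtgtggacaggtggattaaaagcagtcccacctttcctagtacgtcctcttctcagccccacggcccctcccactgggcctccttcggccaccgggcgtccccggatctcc
The Panx1 window held 1 TGACG match on its reverse strand and no GC box. The Adora1 window, before the more upstream of its listed starts, held 3 GC boxes and 1 ACGTG match, and the Adora2b window held 6 GC boxes. The Slc29a1 window, before the most upstream of 8 listed starts, held none of the 4 motifs. Windows before other Slc29a1 starts did hold matches, and that at chr17:45595531-45595780 held 5 GC boxes and 1 ACGTG match. Over 32851 promoter windows of the same length, 32.7% held GGGCGG, 17.8% TGACG, 16.6% ACGTG and 12.4% TATAAA. A match describes letters in these windows and says nothing of binding, and the counts do not show which start was used.

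Total counts ranged from 4259034 to 14856540 per library, and 3 counts were worth between 0.231 and 0.734 CPM, the count relative to the scaled library total. Nos1, the gene that carried the recombinase, was higher in macula densa cells (log2 fold change 8.26 averaged over both diets, SE 0.27, edgeR adjusted p = 7.87e-09). The summed level of 6 macula densa markers was 2150 to 3090 CPM in macula densa libraries and 44.6 to 434 CPM in control-cell libraries. The control cells went against their label in part: beside 102 to 808 CPM of 7 collecting duct markers, they held 44.8 to 1400 CPM of 7 podocyte markers and 53.5 to 1760 CPM of 10 endothelial markers. Control-cell replicate 4 on control diet stood apart from the other 3 of its group, with the lowest podocyte and endothelial sums and the highest collecting duct sum. Results that rest on it are given with and without it.

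Macula densa cells differed from control cells in a mixed way across the pathway. In the average over both diets, 3 of the 7 tested members were higher in macula densa cells (Slc29a1, Panx1 and Entpd5) and 4 were lower (Adora1, Nt5e, Entpd1 and Adora2a), at an edgeR adjusted p under 0.05 over all genes. Of all genes tested, 7.48% were called higher and 13.9% lower in that comparison. Libraries did not overlap on either diet for Slc29a1, which was higher, and for Nt5e and Adora1, which were lower, where 6.02% of all genes were higher and 7.6% lower without overlap. On control diet 1 member was called higher (Slc29a1, against 2.69% of all genes) and 1 lower (Adora1, against 3.92%). With low salt and enalapril 2 were called higher (Slc29a1 and Panx1, against 3.15%) and 2 lower (Adora1 and Nt5e, against 4.13%).

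Without control-cell replicate 4 on control diet, 7 members were still called in the average, 6 on control diet and 6 on low salt with enalapril. That library is not part of the last of these comparisons but enters the shared estimate of the spread. The count on control diet was 0 without macula densa replicate 2 on that diet and 1 without replicate 1. That on low salt with enalapril was 1 without macula densa replicate 2 and 2 without replicate 1. The averaged count was 4 without macula densa replicate 2 of either diet. The median log2 fold change of the 7 tested members was -3.14 in the average (-2.75 with Nt5e at its bound on low salt with enalapril) beside -0.06 over all genes. The filter passes genes that are high in 1 population, so that median describes the members and supports nothing. Scaling by library totals alone moved the median of all genes from -0.06 to 0.14.

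**Figure D1:**
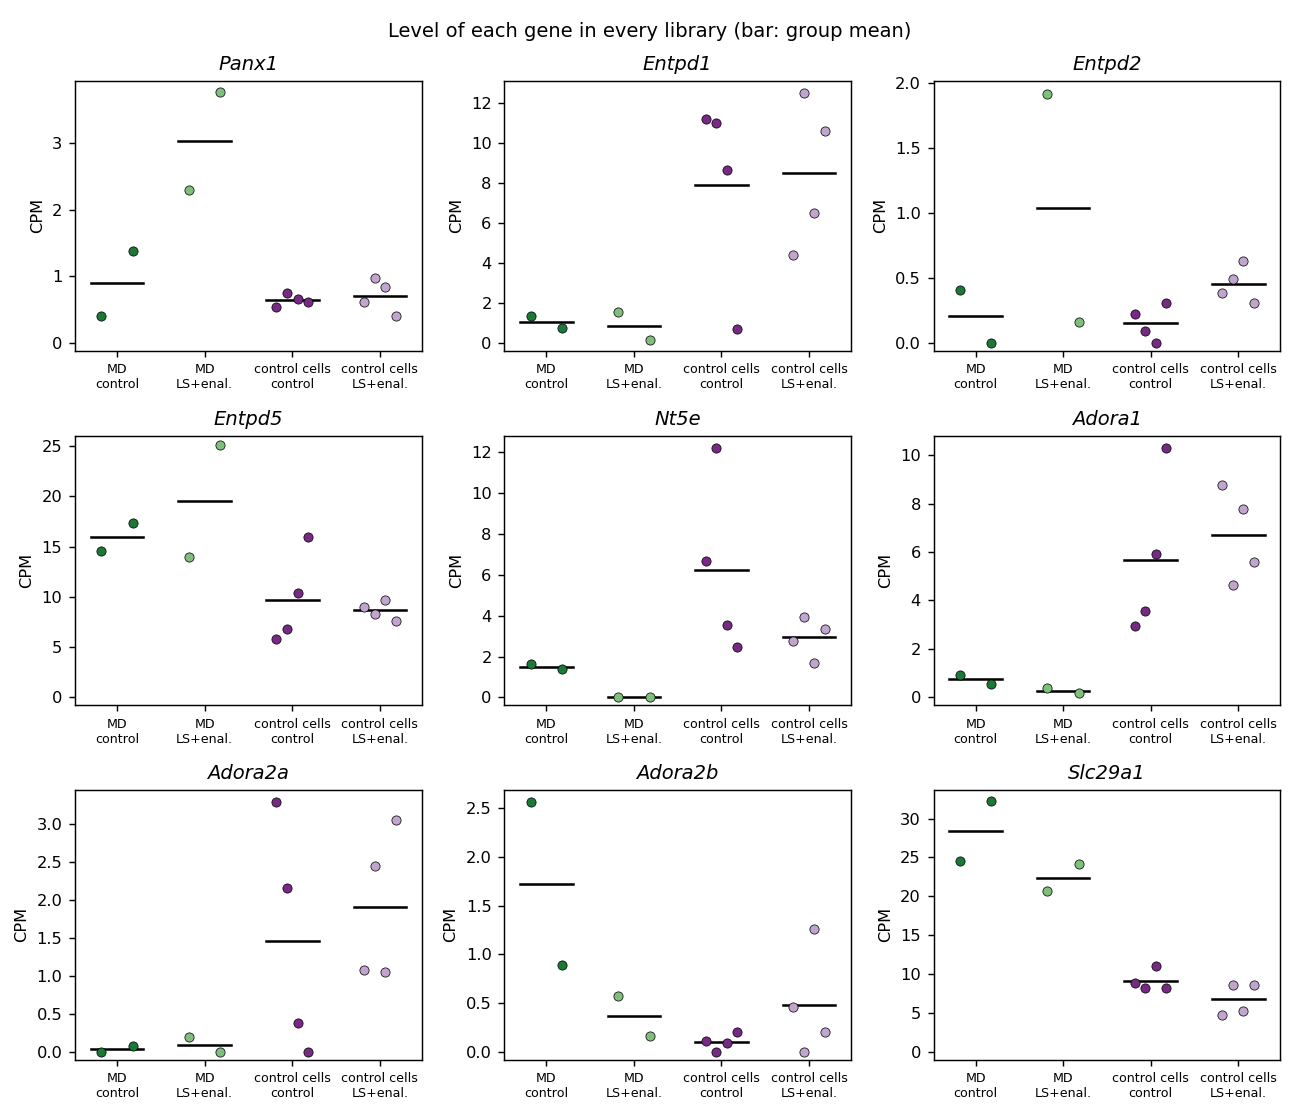
Level in CPM of each of the 9 genes in every library (points), by group, with the group mean as a bar; MD is macula densa and LS+enal. is low salt with enalapril. Slc29a1 lies between 20.7 and 32.3 CPM in the 4 macula densa libraries and between 4.69 and 11 CPM in the 8 control-cell libraries, while Adora1 lies under 1 CPM in the macula densa libraries and at 2.95 CPM or above in the control-cell libraries.

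Panx1 encodes pannexin 1, a large-pore channel through which cells release ATP. On control diet its level was 0.41 and 1.38 CPM in macula densa replicates 1 and 2, and 0.547, 0.752, 0.667 and 0.62 CPM in control-cell replicates 1 to 4. The 2 populations overlapped there, with a log2 fold change of 0.48 (SE 0.58, edgeR adjusted p = 0.676). Under treatment Panx1 was at 2.3 and 3.77 CPM in macula densa cells, and 0.615, 0.979, 0.84 and 0.407 CPM in control cells. Both macula densa libraries lay above all 4 control-cell libraries, and Panx1 was 4.44-fold higher (log2 fold change 2.15, SE 0.58, edgeR adjusted p = 0.0434). Averaged over both diets the log2 fold change was 1.32 (SE 0.41, edgeR adjusted p = 0.0387).

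These Panx1 calls rest on 21 counts in macula densa cells on control diet and 35 on low salt with enalapril. The call on low salt with enalapril was lost with no filter on low counts (edgeR adjusted p = 0.076), in a fit of only the groups compared (0.0595), and on leaving out any 1 library other than the 2 macula densa libraries on control diet and control-cell replicate 4 on that diet, with an adjusted p of up to 0.261 without macula densa replicate 2. The averaged call was lost with no filter (edgeR adjusted p = 0.0695) and without macula densa replicate 2 on control diet, where the log2 fold change was 0.76 (0.342), macula densa replicate 2 on low salt with enalapril (0.145), control-cell replicates 1, 2 and 3 on control diet, or control-cell replicates 1 and 4 on low salt with enalapril (0.0608 to 0.0753).

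Entpd1, Entpd2 and Entpd3 encode ectonucleoside triphosphate diphosphohydrolases, which remove phosphates from ATP and ADP. Entpd1 encodes CD39, the main such enzyme of vascular endothelium and leukocytes. Its level on control diet was 1.33 and 0.733 CPM in macula densa cells and 11.2, 11, 8.67 and 0.723 CPM in control-cell replicates 1 to 4. Replicate 4 of the control cells lay at the macula densa level, so the groups overlapped, and the log2 fold change of -2.94 (SE 0.94) did not pass (edgeR adjusted p = 0.0817). Without that library it was -3.32 and passed (edgeR adjusted p = 0.00346). After low salt with enalapril the level was 1.53 and 0.164 CPM in macula densa cells and 4.38, 12.5, 6.51 and 10.6 CPM in control cells. Those groups did not overlap, with a log2 fold change of -3.34 (SE 1.06, edgeR adjusted p = 0.0751, and 0.00688 without control-cell replicate 4 on control diet). In the average over both diets Entpd1 was 8.81-fold lower in macula densa cells (log2 fold change -3.14, SE 0.71, edgeR adjusted p = 0.0088), a call that limma voom did not make (adjusted p = 0.0716).

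Endothelial and podocyte markers moved with Entpd1 among the control cells. The summed level of the 10 endothelial markers in control-cell replicates 1 to 4 was 1760, 1470, 985 and 53.5 CPM on control diet and 390, 1030, 289 and 1380 CPM on low salt with enalapril. In macula densa cells it was 203 and 29.7 CPM on control diet, and 19.5 and 13.5 CPM on low salt with enalapril, where Plvap was at 0 in both libraries and Tie1 and Eng were at 0 in replicate 2. Among control cells on control diet the 4 libraries had the same order for both, and on low salt with enalapril the 2 with the higher sums also had the higher Entpd1, with the order differing within each pair. The 7 podocyte markers summed to 1400, 1110, 703 and 44.8 CPM in control-cell replicates 1 to 4 on control diet and 138, 1100, 220 and 930 CPM on low salt with enalapril, the same order as Entpd1 in both groups. In macula densa cells they summed to 168 and 29.1 CPM on control diet and 49 and 32.8 CPM on low salt with enalapril, where Nphs1 and Wt1 were at 0 in replicate 2. The part of endothelial cells and podocytes in the Entpd1 difference was not tested. In bulk RNA of this kind, fewer cells of a type and less RNA per cell cannot be told apart.

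Entpd2, which favours ATP over ADP as substrate, was near the detection limit throughout. It measured 0.41 and 0 CPM in macula densa cells on control diet, and 1.92 and 0.164 CPM on low salt with enalapril. Control cells measured 0.219, 0.094, 0 and 0.31 CPM on control diet and 0.384, 0.49, 0.63 and 0.305 CPM on low salt with enalapril. A single library, macula densa replicate 1 on low salt with enalapril, was above 1 CPM, and the populations overlapped on both diets. Averaged over both diets, the mean difference of log2 CPM was 0.26 (two-sided exact permutation within diet, 225 arrangements, unadjusted p = 0.604). No difference was detected at this depth, where the smallest p possible in that test was 0.00444.

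Entpd5 encodes a diphosphatase that acts in the endoplasmic reticulum and can be secreted, and per kilobase it was the highest of the Entpd members in macula densa cells. It measured 14.6 and 17.4 CPM in macula densa cells and 5.8, 6.76, 10.4 and 16 CPM in control cells on control diet. Under treatment Entpd5 measured 14 and 25.1 CPM in macula densa cells and 8.99, 8.32, 9.66 and 7.63 CPM in control cells. Macula densa libraries were above control-cell libraries except for control-cell replicate 4 on control diet, at 16 CPM. The log2 fold change was 0.72 on control diet (SE 0.36, edgeR adjusted p = 0.245), 1.18 on low salt with enalapril (SE 0.36, 0.0705) and 0.95 averaged over both (SE 0.26, 0.0209). The averaged call, a 1.93-fold difference, was lost without macula densa replicate 1 on control diet (edgeR adjusted p = 0.0549), replicate 2 on that diet (0.0973) or replicate 2 on low salt with enalapril (0.147). Without control-cell replicate 4 on control diet, both single-diet differences passed (edgeR adjusted p = 0.0275 and 0.0173).

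Thick ascending limb markers had the same order as Entpd5 among the control cells. The 8 markers of that segment, in which macula densa cells lie, summed to 3410 and 4310 CPM in macula densa cells on control diet and 2450 and 2610 CPM on low salt with enalapril. In control-cell replicates 1 to 4 they summed to 210, 300, 1030 and 1630 CPM on control diet and 803, 501, 1060 and 353 CPM on low salt with enalapril, the same order as Entpd5 in both groups. The sums were higher in every macula densa library than in every control-cell library, as for Slc29a1, but their order among control cells differed from that of Slc29a1 and of Panx1. The Entpd5 order was not particular to this segment. On control diet the macula densa, distal convoluted and connecting tubule, principal-cell and intercalated-cell sums had it too. So did the macula densa sums on low salt with enalapril, at 234, 203, 434 and 152 CPM. In macula densa cells the thick ascending limb sums were lower under treatment. Mean Entpd5 was not, at 16 CPM on control diet and 19.5 CPM under treatment. The part of any of these cells in these differences was not tested.

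Nt5e encodes CD73, the ecto-5′-nucleotidase that makes adenosine from AMP. On control diet it measured 1.64 and 1.38 CPM in macula densa cells and 6.67, 12.2, 3.52 and 2.48 CPM in control cells. Both macula densa libraries lay below all control-cell libraries, but the log2 fold change of -2.04 (SE 0.63) did not pass (edgeR adjusted p = 0.0786, and 0.0156 without control-cell replicate 4). Under treatment no Nt5e count was seen in either macula densa library, against 2.77, 3.92, 1.68 and 3.36 CPM in control cells. Nt5e was at least 11.1-fold lower there, taking 3 counts over the macula densa group as the floor (edgeR adjusted p = 0.0149). The averaged comparison passed (edgeR adjusted p = 0.00242), with no fitted fold given because 1 group was at 0.

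The Nt5e call on low salt with enalapril was lost without macula densa replicate 1 (edgeR adjusted p = 0.0594) or replicate 2 (0.112), and limma voom made neither that call (adjusted p = 0.349) nor the averaged one (0.108). The 8 fibroblast and mesangium markers summed to 74.9, 147, 63.8 and 39.4 CPM in control-cell replicates 1 to 4 on control diet, the same order as Nt5e in those libraries. They summed to 73.2, 57.8, 29.6 and 49 CPM on low salt with enalapril, where the orders differed. In macula densa cells they summed to 27.1 and 5.13 CPM on control diet and 4.98 and 4.1 CPM on low salt with enalapril, with Itga8 at 0 in both treated libraries and Pdgfra and Dcn at 0 in replicate 2. The 10 proximal tubule markers summed to 46.7 to 248 CPM in macula densa libraries and 12 to 99.5 CPM in control-cell libraries. The 8 leukocyte markers with a row summed to 14.2, 140, 3.99 and 73.1 CPM in control cells on low salt with enalapril. That was the Nt5e order, which their sums on control diet, 94.3, 44.3, 52.9 and 10.5 CPM, did not have. In macula densa libraries they summed to 2.62 to 8.21 CPM. The part of any of these cells in the Nt5e difference was not tested.

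Adora1 encodes the A1 receptor, a Gi-coupled receptor found on the afferent arteriole and along parts of the tubule. On control diet it measured 0.923 and 0.57 CPM in macula densa cells and 2.95, 3.57, 5.9 and 10.3 CPM in control cells. The groups did not overlap, and Adora1 was 7.59-fold lower in macula densa cells (log2 fold change -2.92, SE 0.59, edgeR adjusted p = 0.0138). Under treatment Adora1 measured 0.383 and 0.164 CPM in macula densa cells and 8.76, 4.65, 7.77 and 5.59 CPM in control cells. The 3 counts in macula densa cells against 225 in control cells gave a ratio of 26.8 (95% counting interval 9.05 to 131, edgeR adjusted p = 0.00519). For the average over both diets the edgeR adjusted p was 0.000347, and it reached 0.0134 at most over the alternatives and single libraries left out.

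The Adora1 call on control diet was lost in a fit of only the groups compared (edgeR adjusted p = 0.0662) and without macula densa replicate 1 (0.0877) or replicate 2 (0.202) on that diet. The call on low salt with enalapril was lost under limma voom (adjusted p = 0.145) and, with edgeR, without macula densa replicate 2 (0.091). The 7 collecting duct markers, which are those of principal cells, summed to 117, 278, 420 and 808 CPM in control-cell replicates 1 to 4 on control diet. That was the same order as Adora1 in those libraries. On low salt with enalapril they summed to 345, 173, 102 and 271 CPM, where the orders differed. In macula densa cells they summed to 36 and 15 CPM on control diet and 10.7 and 28.5 CPM on low salt with enalapril, with Fxyd4 at 0 in both treated libraries and Avpr2 at 0 in replicate 1. The Adora1 order was not particular to principal cells. The 6 intercalated-cell markers had it in both control-cell groups. They summed to 21.9, 85.8, 117 and 350 CPM on control diet and 113, 42.1, 86.3 and 77.5 CPM on low salt with enalapril. In macula densa libraries they summed to 17.1 to 31.5 CPM. On control diet the macula densa, thick ascending limb, and distal convoluted and connecting tubule sums had the Adora1 order too. The part of any of these cells in the Adora1 difference was not tested.

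Adora2a encodes a Gs-coupled adenosine receptor of vessels and leukocytes. In macula densa cells it was at 0 and 0.0815 CPM on control diet and at 0.192 and 0 CPM on low salt with enalapril, a single count per group. In control cells it measured 3.28, 2.16, 0.381 and 0 CPM on control diet and 1.08, 2.45, 1.05 and 3.05 CPM on low salt with enalapril. Control-cell replicate 4 on control diet, at 0, again matched the macula densa level, so the populations overlapped on that diet and not on the other. The ratio of summed counts was 31.4 on control diet (95% counting interval 5.42 to 1260, edgeR adjusted p = 0.116) and 21.1 on low salt with enalapril (3.64 to 846, 0.157). The averaged comparison passed (edgeR adjusted p = 0.0229). It was lost under limma voom (adjusted p = 0.164) and, with edgeR, without macula densa replicate 1 or 2 on control diet (0.0733 and 0.0656) or replicate 2 on low salt with enalapril (0.0856). Without control-cell replicate 4, the comparison on control diet passed (edgeR adjusted p = 0.0187). The endothelial sums given with Entpd1 also apply here. Among control-cell libraries they had the same order as Adora2a in both diet groups. The podocyte sums had the Adora2a order on control diet only. The part of these cells in the Adora2a difference was not tested.

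**Figure D2:**
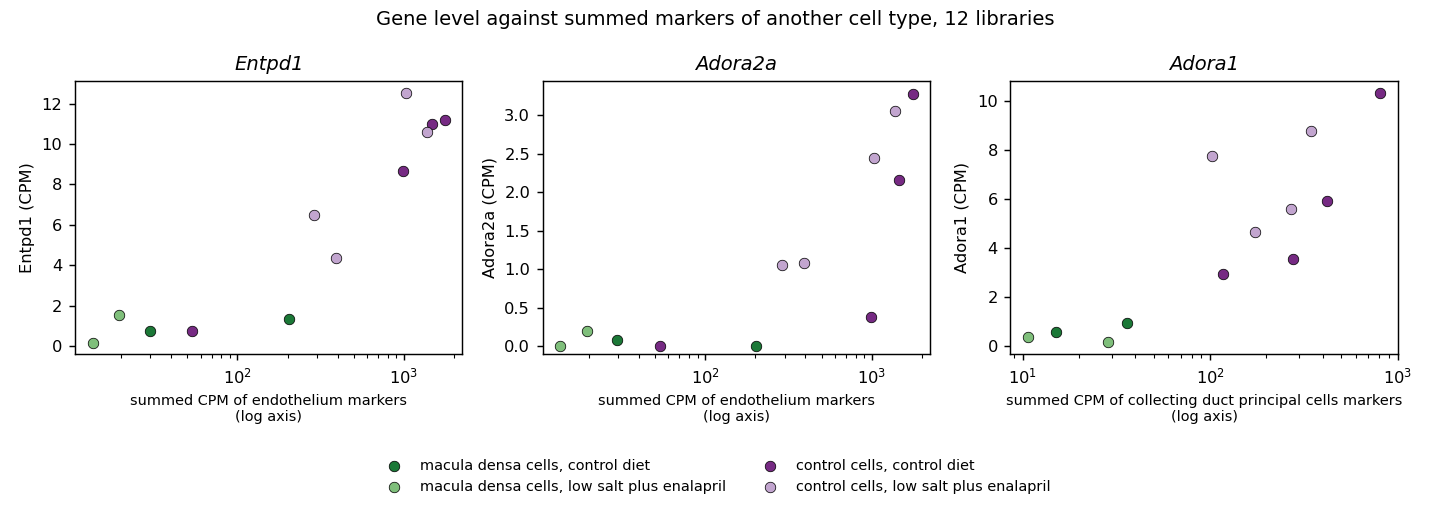
Level in CPM of Entpd1 and Adora2a against the summed level of 10 endothelial markers, and of Adora1 against 7 collecting duct markers, on a logarithmic horizontal axis; each point is 1 of 12 libraries, coloured by group. The 4 macula densa libraries sit at 203 CPM or below for endothelial markers and 36 CPM or below for collecting duct markers, and control-cell replicate 4 on control diet sits at 53.5 CPM on the endothelial axis with Entpd1 at 0.723 CPM.

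Adora2b encodes a second Gs-coupled adenosine receptor, which has low affinity for adenosine. It measured 2.56 and 0.896 CPM in macula densa cells on control diet, from 25 and 11 counts, and 0.109, 0, 0.0952 and 0.207 CPM in control cells. Both macula densa libraries lay above all 4 control-cell libraries on that diet. Under treatment Adora2b measured 0.575 and 0.164 CPM in macula densa cells, from 3 and 1 counts, and 0.461, 0, 1.26 and 0.203 CPM in control cells, and the groups overlapped. Adora2b fell below the filter, and in a fit of all 23378 genes without one its log2 fold change on control diet was 3.95 (SE 1.05, edgeR adjusted p = 0.0511), which missed the threshold. Averaged over both diets, the mean difference of log2 CPM was 1.22 (two-sided exact permutation within diet, unadjusted p = 0.0844), where the smallest p possible was 0.00444.

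Slc29a1 encodes the equilibrative nucleoside transporter ENT1, which carries adenosine across the plasma membrane. On control diet it measured 24.5 and 32.3 CPM in macula densa cells and 8.86, 8.27, 11 and 8.26 CPM in control cells. Under treatment Slc29a1 measured 20.7 and 24.1 CPM in macula densa cells and 4.69, 8.57, 5.25 and 8.65 CPM in control cells. All 4 macula densa libraries were above all 8 control-cell libraries, and control-cell replicate 4 on control diet was within the range of its group. Slc29a1 was 3.12-fold higher in macula densa cells on control diet (log2 fold change 1.64, SE 0.26, edgeR adjusted p = 0.00437) and 3.32-fold higher on low salt with enalapril (1.73, SE 0.27, 0.00398). The averaged difference was 3.22-fold (log2 fold change 1.69, SE 0.19, 95% interval 1.27 to 2.1, edgeR adjusted p = 0.000142). That call was kept in each alternative and with each library left out, with an edgeR, DESeq2 or voom adjusted p of at most 0.00427, while the call on control diet was lost without macula densa replicate 2 (edgeR adjusted p = 0.0718).

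**Figure D3:**
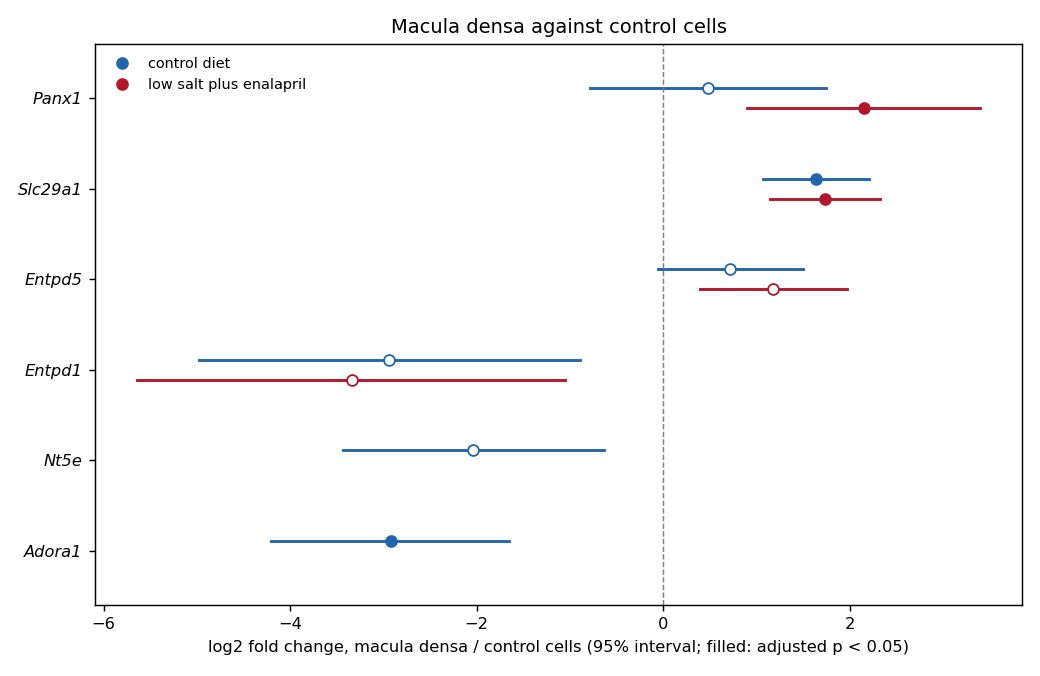
Log2 fold change of macula densa against control cells with its 95% interval, on control diet and on low salt with enalapril; filled points passed an edgeR adjusted p of 0.05. Slc29a1 is at 1.64 and 1.73 and Adora1 is at -2.92 on control diet; comparisons in which a group held 3 counts or fewer (Nt5e and Adora1 on low salt with enalapril, Adora2a on both) are left out.

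Levels were compared between genes per kilobase of exon. In macula densa cells on control diet the order was Slc29a1 at 7.08 ± 1.37 CPM per kb (SD, n = 2), Entpd5 at 2.65 ± 0.335 and Adora2b at 0.938 ± 0.639, with no overlap between these neighbours or between Adora2b and the next gene. Entpd1, Nt5e, Panx1, Adora1, Entpd2 and Adora2a followed between 0.185 and 0.0133 CPM per kb, and neighbours among them overlapped. After low salt with enalapril the macula densa order was Slc29a1 at 5.59 ± 0.604, Entpd5 at 3.24 ± 1.3 and Panx1 at 0.503 ± 0.173 CPM per kb (SD, n = 2), again without overlap between these 3. Entpd2, Adora2b, Entpd1, Adora1 and Adora2a lay between 0.489 and 0.0313, and Nt5e was at 0. In control cells all neighbours overlapped: on control diet the means ran from 2.27 CPM per kb for Slc29a1 through 1.61 for Entpd5, 1.41 for Entpd1 and 0.983 for Adora1 down to 0.0557 for Adora2b. Under treatment they ran from 1.69 for Slc29a1 and 1.52 for Entpd1 down to 0.118 for Panx1.

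**Figure D4:**
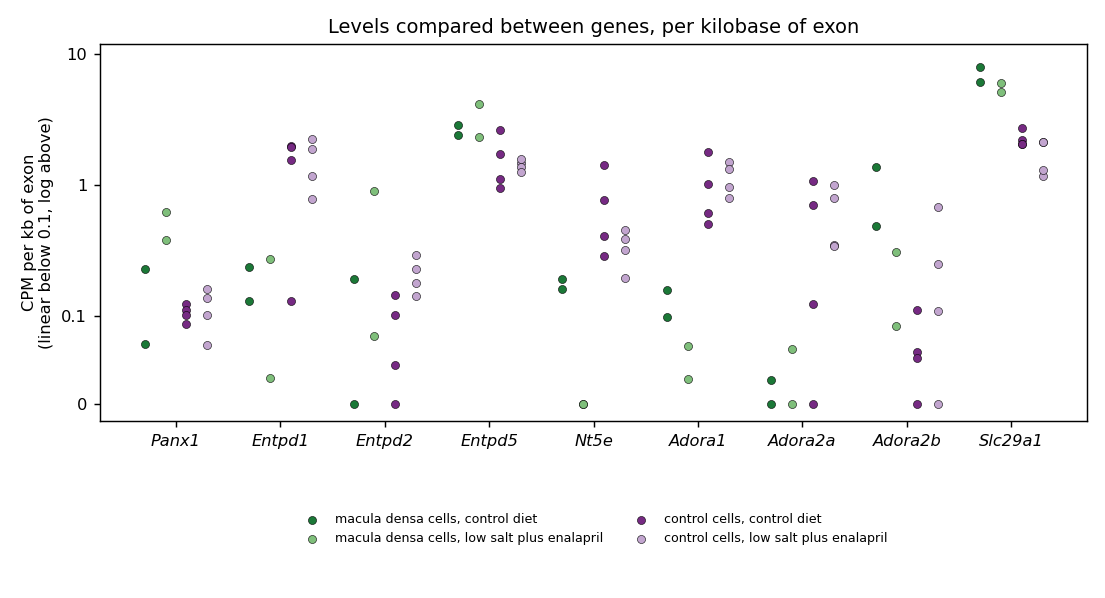
Level of each gene per kilobase of exon (CPM per kb) in every library, coloured by group, on an axis that is linear below 0.1 and logarithmic above. Slc29a1 and Entpd5 head the macula densa libraries with group means of 7.08 and 2.65 CPM per kb on control diet, and the members spread over a narrower range in control cells, where Slc29a1 averages 2.27 CPM per kb.

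The comparison of diets asked which of these transcripts differ between mice on low salt with enalapril and mice on control diet. None of the 7 tested members passed in macula densa cells (0 called, with 0% of all genes called), and 2 had an unadjusted p under 0.05, Panx1 and Nt5e. Of all genes, 1594 had an unadjusted edgeR p under 0.05, and the lowest edgeR adjusted p among them was 0.123. DESeq2 called 93 genes and limma voom 4, with no member among them. An edgeR fit of only the groups compared called 105 genes and none of the 5 members it tested. With 2 libraries against 2, an exact test cannot go below p = 0.333.

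Panx1 was higher in both treated macula densa libraries (2.3 and 3.77 CPM) than in both on control diet (0.41 and 1.38 CPM), with a log2 fold change of 1.72 (SE 0.66, edgeR adjusted p = 0.372). Nt5e went from 33 counts over the macula densa group on control diet to 0 counts, at least 5.65-fold lower (edgeR adjusted p = 0.244). Over the same libraries the fibroblast and mesangium sum was 5.13 and 27.1 against 4.1 and 4.98 CPM, and the proximal tubule sum 147 and 248 against 46.7 and 106 CPM. The part of these cells in the Nt5e value was not tested.

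For the receptors and the transporter in macula densa cells, Adora1 held 16 counts on control diet and 3 on low salt with enalapril, a ratio of 2.74 (95% counting interval 0.784 to 14.7, edgeR adjusted p = 0.593). Adora2b was lower in both treated libraries than in both on control diet (36 against 4 counts), with a log2 fold change of -2.34 in the fit without a filter (SE 1.26, edgeR adjusted p = 0.447). Adora2a had 1 count in each group, at or under the floor. Slc29a1 had a log2 fold change of -0.34 (95% interval -1.03 to 0.34, edgeR adjusted p = 0.716), and Entpd5 of 0.29 (-0.63 to 1.21, 0.836). Entpd1 had -0.32 (-3.01 to 2.37, edgeR adjusted p = 0.95).

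In control cells no tested member passed under the same treatment (0 called, with 0.00705% of all genes called, the single gene Ren1). Ren1, the renin gene, was higher on low salt with enalapril in those cells (log2 fold change 4.21, SE 0.43, edgeR adjusted p = 0.00476). In that comparison 914 genes and 1 member had an unadjusted edgeR p under 0.05, and DESeq2 called 74 genes and no member. That member was Nt5e, at a log2 fold change of -1.09 (SE 0.48, edgeR adjusted p = 0.757), with overlapping groups. The other 6 had log2 fold changes from -0.43 for Slc29a1 (95% interval -0.94 to 0.08) to 0.39 for Adora2a (-1.55 to 2.33). That of Panx1, 0.06, was -0.05 with library totals alone.

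**Figure D5:**
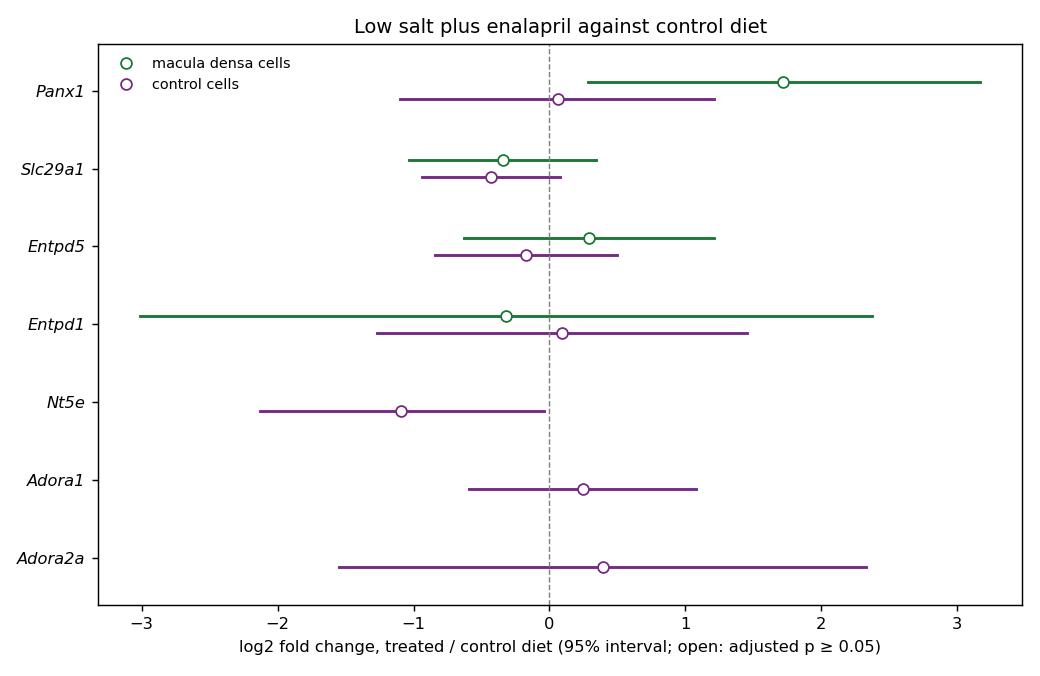
Log2 fold change of low salt with enalapril against control diet with its 95% interval, in macula densa cells and in control cells; all points are open because none passed an edgeR adjusted p of 0.05. Panx1 in macula densa cells (1.72) and Nt5e in control cells (-1.09) have intervals that leave out 0; Nt5e, Adora1 and Adora2a in macula densa cells are left out because a group held 3 counts or fewer.

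Whether the treatment effect differed between the 2 populations was tested as an interaction. No member passed (0 called, with 0% of all genes called). With edgeR 997 genes had an unadjusted p under 0.05, 1 of them a member, and the lowest adjusted p of any gene was 0.382. DESeq2 called 13 genes and limma voom 0, with no member among them. The member was Nt5e (edgeR adjusted p = 0.643). The difference of the 2 log2 fold changes was 1.67 for Panx1 (SE 0.84, edgeR adjusted p = 0.739), -1.67 for Adora1 (SE 1, 0.774) and 0.09 for Slc29a1 (SE 0.39, 0.976). For Adora2b, in the fit without a filter, it was -4.39 (SE 1.63, edgeR adjusted p = 0.653).

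The rest of the purine pathway was described from lists of 54 other genes of ATP release, nucleotide hydrolysis, nucleoside transport and adenosine conversion, P2 nucleotide receptors, and receptor-coupled G proteins. Of these, 43 had a row and 30 were tested. In the average over both diets, 3 of 30 were higher in macula densa cells (10%, against 7.48% of all genes) and 7 were lower (23.3%, against 13.9%), with a median log2 fold change of -0.34 beside -0.06 over all genes. By list, the higher and lower counts were 0 and 2 of 5 for ATP release, 2 and 1 of 11 for hydrolysis, 1 and 0 of 4 for transport and conversion, 0 and 3 of 6 for P2 receptors, and 0 and 1 of 4 for G proteins. Leaving out a library can change which genes pass the filter. Of the listed genes, 37 were tested without the treated macula densa replicate 1, against 30 with all libraries. Without the control-cell library that stood apart, 12 of 30 were called, 3 higher and 9 lower. No gene of these lists passed in either comparison of diets or in the interaction, by edgeR.

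Among the hydrolysing enzymes, Enpp1 is an ectonucleotide pyrophosphatase that splits ATP into AMP and pyrophosphate. It measured 48.1, 48.3, 52.3 and 50.5 CPM in the 4 macula densa libraries, replicates 1 and 2 on control diet and then on low salt with enalapril, and 2.03 to 6.72 CPM in the 8 control-cell libraries. Enpp1 was higher by 3.5 on the log2 scale averaged over both diets (SE 0.28, edgeR adjusted p = 1.44e-05) and passed on each diet alone. Acpp, a prostatic acid phosphatase that can act on AMP, was lower (edgeR adjusted p = 0.00807), at 0 to 0.821 CPM in macula densa cells and 0.62 to 17.1 CPM in control cells, with replicate 4 on control diet lowest (without that library, edgeR adjusted p = 0.000608). In the ATP release list, Slco2a1 is a prostaglandin transporter also described as part of a large-pore anion channel. It was lower by a log2 fold change of -3.89 (SE 0.61, edgeR adjusted p = 0.00123). Lrrc8a, the obligate subunit of volume-regulated anion channels, was lower by -1.24 (SE 0.24, edgeR adjusted p = 0.00406). Gnai2, an inhibitory G protein subunit, had a log2 fold change of -1.67 (SE 0.4, edgeR adjusted p = 0.0126). For Slco2a1 and Gnai2 the populations overlapped on control diet. Without control-cell replicate 4 on that diet, their edgeR adjusted p-values were 2.89e-05 and 0.000627.

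The other genes called, too low for the naming rule and named here after their values were seen, were Nt5c1a and Ahcy, which were higher, and P2rx1, P2ry1 and P2ry2, which were lower. Nt5c1a, a cytosolic nucleotidase for AMP, measured 4.82 to 11.2 CPM in macula densa cells and 0 to 2.31 CPM in control cells, where 3 of 4 libraries on control diet were at 0 (edgeR adjusted p = 0.000344). Per kilobase of exon it was at 4.55 ± 0.841 CPM per kb in macula densa cells on control diet and 8.18 ± 1.36 on low salt with enalapril, beside 4.7 ± 0.0133 and 5.01 ± 0.122 for Enpp1 (SD, n = 2). Ahcy, which splits S-adenosylhomocysteine into adenosine and homocysteine, had an averaged log2 fold change of 0.81 (SE 0.24, edgeR adjusted p = 0.0339). On control diet it was -0.1 (SE 0.35, edgeR adjusted p = 0.927) and the groups overlapped. On low salt with enalapril it was 1.72 (SE 0.34, edgeR adjusted p = 0.0127). The interaction for Ahcy was 1.82 (SE 0.5, edgeR adjusted p = 0.558) and did not pass. The 3 P2 receptors were at 0 to 1.74 CPM in macula densa cells, and their edgeR adjusted p-values were 0.00393 for P2rx1, 0.021 for P2ry1 and 0.00567 for P2ry2. P2ry1 overlapped on control diet, and its edgeR adjusted p was 0.00221 without control-cell replicate 4 on that diet.

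For the 3 members with a mean of at least 5 CPM, the genes most alike over the 12 libraries were found among 6687 genes by the root mean square difference of log2 CPM, each gene centred on its own mean. Entpd1 was nearest to Prickle2 (0.28), Jcad (0.38) and Abi3 (0.4), where the median over all genes was 1.71. Entpd5 was nearest to Sim1 (0.18), Suclg1 (0.19) and Suclg2 (0.19), with a median of 0.69. Slc29a1 was nearest to Ass1 (0.24), Cables1 (0.28) and Vps13c (0.35), with a median of 0.94. Entpd5 and Slc29a1 differed from each other by 0.61. These are descriptions over libraries that share their cell sorts and depth.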

How the data were processed

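RNA sequencing libraries were prepared together with the SMARTer Stranded Total-RNA Pico v2 kit, per the labels' protocols. The submitters' processing notes name STAR 2.61, Partek and mm10 without their roles, and whether counting used strand is not given in the sources used here. The authors deposited estimated counts (expected counts) per gene, made by a step not given in the sources used here. Of these values 14.8% were not whole, and the smallest sum over the 12 libraries was 10. They were rounded before testing. Start and end equalled a GENCODE M21 entry of that name for 23351 of 23378 symbols. No column of values lacked a sample (0 columns).

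From these counts edgeR 4.0.16 (R 4.3.3) scaled libraries with trimmed means of M values (TMM). The function filterByExpr (count minimum 10, total minimum 15) left 14180 genes. A single quasi-likelihood fit of the 12 libraries (glmQLFit, glmQLFTest) had 1 coefficient for each group, and Benjamini-Hochberg adjustment ran over all genes tested, with a threshold of 0.05. CPM are counts relative to the TMM-scaled total, per kilobase of the union of exons where genes are compared, and log2 CPM used a prior count of 2. Ratios for groups with 1 to 3 counts have exact 95% intervals. These intervals and the floors of 3 counts reflect counting error alone, because without molecular identifiers a read is not an independent molecule. Simulated counts were used to test the fit, and no 2 replicates agreed within sampling noise.

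The members, gene lists and tests were chosen with earlier results of these data known. All members are named. Other purine genes are named where they passed with a mean of at least 5 CPM, up to 5 per direction by fold change. Promoters matched 9 of the 10 symbols, all but Adora2a. Alternatives were DESeq2 1.42.0 size factors and Wald test, library totals alone, other filters, ribosomal and mitochondrial RNA left out, limma 3.58.1 voom, fewer groups, replicate blocks, and each library left out.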

Additional observations from a re-analysis of the deposited data

Results flagged for a closer look

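Entpd1 in control-cell replicate 4 on control diet stood far from the other 3 libraries of its group, at a log2 CPM of -0.07 against 3.15 to 3.51. This was 1 of 18 groups of 4 libraries checked (9 genes in 2 control-cell groups), where chance would mark about 0.9. The same library had the lowest endothelial marker sum of its group, 53.5 CPM, and the lowest podocyte marker sum, 44.8 CPM; their part in the Entpd1 value was not tested.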

How the results depend on the processing

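Of 868 log2 fold changes recomputed for the 7 tested members, 777 kept their direction and their side of the threshold, 42 lost a call, 19 gained one and 30 reversed. All 72 group means moved by less than 1 SD under other scalings. On control diet the count of members called in the comparison of cell populations was 2, and it was 1 with a filter at a mean of 5 CPM, 5 with the DESeq2 Wald test, 1 with only the groups compared, and 0 to 6 with single libraries left out. On low salt with enalapril it was 4, and 1 with the 5 CPM filter, 2 with limma voom, and 1 to 6 with single libraries left out. Averaged over both diets it was 7, and 3 with the 5 CPM filter, which leaves 3 members, 4 with limma voom, and 4 to 7 with single libraries left out. The count of other purine genes was 10 of 30 tested, and 6 of 15 with the 5 CPM filter. With single control-cell libraries left out it was 9 to 12, of 29 to 31 tested. With a macula densa library left out 36 to 39 were tested, so counts from those fits have another base. Counts over all genes moved as well: from 938 on control diet to 378 to 2217, from 1031 on low salt with enalapril to 396 to 2192, and from 3027 in the average to 1872 to 3714, single libraries aside. In the comparisons of diets and the interaction no member was called in any alternative run. Except where a smaller set of genes or samples was tested, the cause was not tested.

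A replicate block on the title numbers gave 1 member called on control diet, 3 on low salt with enalapril and 6 in the average, and a block on the description numbers, on the 8 libraries that share one, gave 4, 5 and 6. The numbers are not stated to mark an animal, so they were not taken as pairs. Deviations from group means correlated across genes at -0.04 to 0.23 for the same description number and -0.23 to 0.25 for the same title number. With 2 macula densa libraries per diet, their deviations are mirror images, and each correlation recurs with the opposite sign. These correlations therefore cannot decide whether the numbers mark pairs. Panx1 lost its averaged call under the 2 blocks (edgeR adjusted p = 0.175 and 0.256) and its call on low salt with enalapril (0.12 and 0.187). Adora1 lost its call on control diet under the title block (0.0568). The description block added calls for Entpd1 (0.00188) and Nt5e (0.0348) on control diet, and for Entpd1 (0.00175) and Entpd5 (0.0176) on low salt with enalapril. The block on description numbers gave no value for the comparisons of diets, and a fit of only the groups compared gave none for the average and the interaction.

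Reversals were all in differences that had not passed. In the diet comparison of control cells, Panx1 went from 0.06 to -0.05 with library totals alone and -0.12 with limma voom, and Entpd5 from -0.17 to 0.02 with limma voom. In the interaction, Adora2a went from 0.43 to -0.24 with limma voom, -0.09 with the title block and -0.67 with the description block, and Slc29a1 from 0.09 to -0.02 with no filter and -0.17 with the description block. With single libraries left out, Panx1 ran from -0.59 to 1.1 in the comparison of cell populations on control diet. Between diets in macula densa cells, Entpd1 ran from -2.61 to 0.52, Entpd5 from -0.25 to 0.58 and Adora2a from -2.1 to 2.78. In that of control cells, Panx1 ran from -0.11 to 0.31, Entpd1 from -0.3 to 0.33, Entpd5 from -0.34 to 0.17 and Adora2a from -0.02 to 1.16. In the interaction, Entpd1 ran from -2.71 to 0.42, Entpd5 from -0.08 to 0.75, Adora2a from -2.52 to 2.37 and Slc29a1 from -0.15 to 0.21. Depth limits Entpd2, Adora2a, Adora2b and, in macula densa cells on low salt with enalapril, Nt5e and Adora1, where a group held at most 4 counts or a library 0.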
